A study of Mus musculus with 10 samples.

Results

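The HoxA cluster is a row of homeobox genes that lie side by side on mouse chromosome 6, and it was followed here from Hoxa2 to Hoxa13 in embryonic limb buds with and without Dicer. Its members were taken as every probe set of the array annotated to exactly 1 of 10 listed symbols: Hoxa2, Hoxa3, Hoxa4, Hoxa5, Hoxa6, Hoxa7, Hoxa9, Hoxa10, Hoxa11 and Hoxa13. That gave 16 of 45101 probe sets, for 9 of 18193 named genes. Hoxa6 had no probe set under this rule and is not analysed here. Of the 16 probe sets, 11 were bright enough to be tested (7 genes), and the 5 dimmer ones included every probe set of Hoxa2 and Hoxa4.

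The mice came from a cross in which 1 parent was heterozygous for a floxed Dicer allele and carried prxcre, a transgene that makes Cre in the mesenchyme of the limb bud, and the other parent was homozygous for the floxed allele. Each embryo of this cross receives a floxed allele from the homozygous parent, also those in the control group. The labels name a wild type and a mutant group with 5 arrays each, numbered 1 to 5. The sources used here give neither the embryonic stage nor the limb pair, nor how many embryos an array holds or whether heterozygous ones are among them. A p-value therefore compares the group difference only with how much these samples vary, and that variation may be technical. Because the driver acts in mesenchyme, ectoderm, blood, vessel and muscle precursor cells of a mutant limb bud keep Dicer.

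HOX proteins are transcription factors that bind DNA through their homeodomain, mostly together with PBX and MEIS partners. The genes are switched on in the order in which they lie, and in the limb the members near Hoxa13 act later and more distally than those before them: Hoxa9 and Hoxa10 act in the upper limb segment, Hoxa11 in the forearm and lower leg, and Hoxa13 in the hand and foot. Dicer cuts hairpin precursors into mature microRNAs, and the Hox clusters themselves hold microRNA genes that act on Hox transcripts.

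The sequences of microRNAs from the Hox clusters and of let-7a are shown as background, since Dicer makes their mature forms. Hoxa7 and Hoxa9 are among the genes reported as miR-196 targets. They are the 2 members called as changed without the arrays numbered 2, and were singled out with those calls known. In all 10 arrays 0 of 11 probe sets were called. Reported targets among the other genes were not gathered. The part of any microRNA in the Hoxa7 and Hoxa9 values was not tested. By RefSeq (GRCm38.p6) the miR-196b gene lies between Hoxa9 and Hoxa10. The mature forms, from RefSeq with that build, are written 5′ to 3′, with the seed (bases 2 to 8) in capitals. miR-196b-5p lies at chr6:52230129-52230150 on the minus strand. miR-196a-5p comes from a copy at chr11:96265187-96265208 in the HoxB cluster and a copy at chr15:102973365-102973386 in the HoxC cluster, and let-7a-5p is shown from chr13:48538239-48538260 on the minus strand.
miR-196b-5p: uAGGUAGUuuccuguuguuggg
miR-196a-5p: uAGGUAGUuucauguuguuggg
let-7a-5p: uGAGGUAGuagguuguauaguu
miR-10a-5p: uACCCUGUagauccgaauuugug
miR-10b-5p: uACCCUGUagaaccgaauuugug
The 2 miR-196 forms share the seed AGGUAGU and differ at 1 base, A12C, counted from the 5′ end of miR-196a-5p. The 7 bases of that seed also stand in let-7a-5p, starting at position 3 instead of position 2. miR-10a and miR-10b, from the HoxB and HoxD clusters, share the seed ACCCUGU and differ at U12A, counted in the same way from miR-10a-5p. The arrays give no level of a mature microRNA, and the sites of these microRNAs in HoxA transcripts were not analysed here.

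Before the members, the targeted gene has to be given, since it checks the labels. Dicer1 probe set 1427941_at read 425, 372, 390 and 706 in wild type 1, 3, 4 and 5. The mutants of those numbers read 226, 221, 215 and 205. The library labelled wild type 2 read 233 and the library labelled Dicer mutant 2 read 360, so both arrays numbered 2 went against their labels. In the 8 other arrays Dicer1 was lower by 1.08 on the log2 scale there (limma adjusted p = 0.0272). At its second probe set, 1460571_at, it was lower by 0.57 (adjusted p = 0.0282). Number 2 was left out for its Dicer1 values, so these p-values are no separate support for the labels. In all 10 arrays as labelled the log2 differences were -0.74 and -0.36 (limma adjusted p = 0.99963 for each). Because number 2 went against its labels, results are given for all 10 arrays as labelled and for the 8 arrays without number 2. That choice was made with the Dicer1 values known. Array medians lay between 145.9 and 152.8, and precision is limited by how few arrays there are. Limb mesenchyme markers were present: Prrx1 read 2128 to 2898 and Lhx9 1716 to 2369 over the 10 arrays. Of 36 markers of 7 other cell types on the array 28 were tested and 0 were called in the 8 arrays by limma, against 2.12% of all genes. With the replicate number as a block 3 were called, 2 macrophage markers higher and 1 ectoderm marker lower, against 6.43% of all genes, and the summed signal of each marker list overlapped between the groups; their part in the HoxA values was not tested. In whole limb buds, fewer cells of a type and less RNA per cell cannot be told apart.

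In the 8 arrays Hoxa7 and Hoxa9, which lie side by side, were called as higher in the mutant limb buds. Hoxa9 was called at 1 of its 2 tested probe sets (1.62-fold) and Hoxa7 at its single probe set (1.34-fold). Hoxa3, Hoxa5, Hoxa10, Hoxa11 and Hoxa13 did not pass the test. Limma, with Benjamini-Hochberg adjustment over all 22519 probe sets tested, called 2 of the 11 HoxA probe sets as higher and 0 as lower, where 1.68% of all probe sets were called (0.928% as higher and 0.75% as lower). The median log2 fold change of the 11 was 0.16, against -0.0064 over all probe sets, and 11 of 11 values were above 0, against 47.7% of all probe sets (8 of 11 against 40.3% in the 10 arrays). Adding the replicate number as a block left 2 HoxA probe sets called, both higher, against 5.41% of all probe sets (2.4% higher and 3.01% lower). An unadjusted p below 0.05 was reached by 3 of the 11, against 12.7% of all, and 3 of the 11 separated the groups, against 9.09% of all. With all 10 arrays as labelled, 0 of 11 were called and 0 of all 22519 (0%). There 0 of the 11 had an unadjusted p below 0.05, where 2.81% of all had, and their log2 fold changes ran from -0.032 to 0.40.

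**Figure D1:**
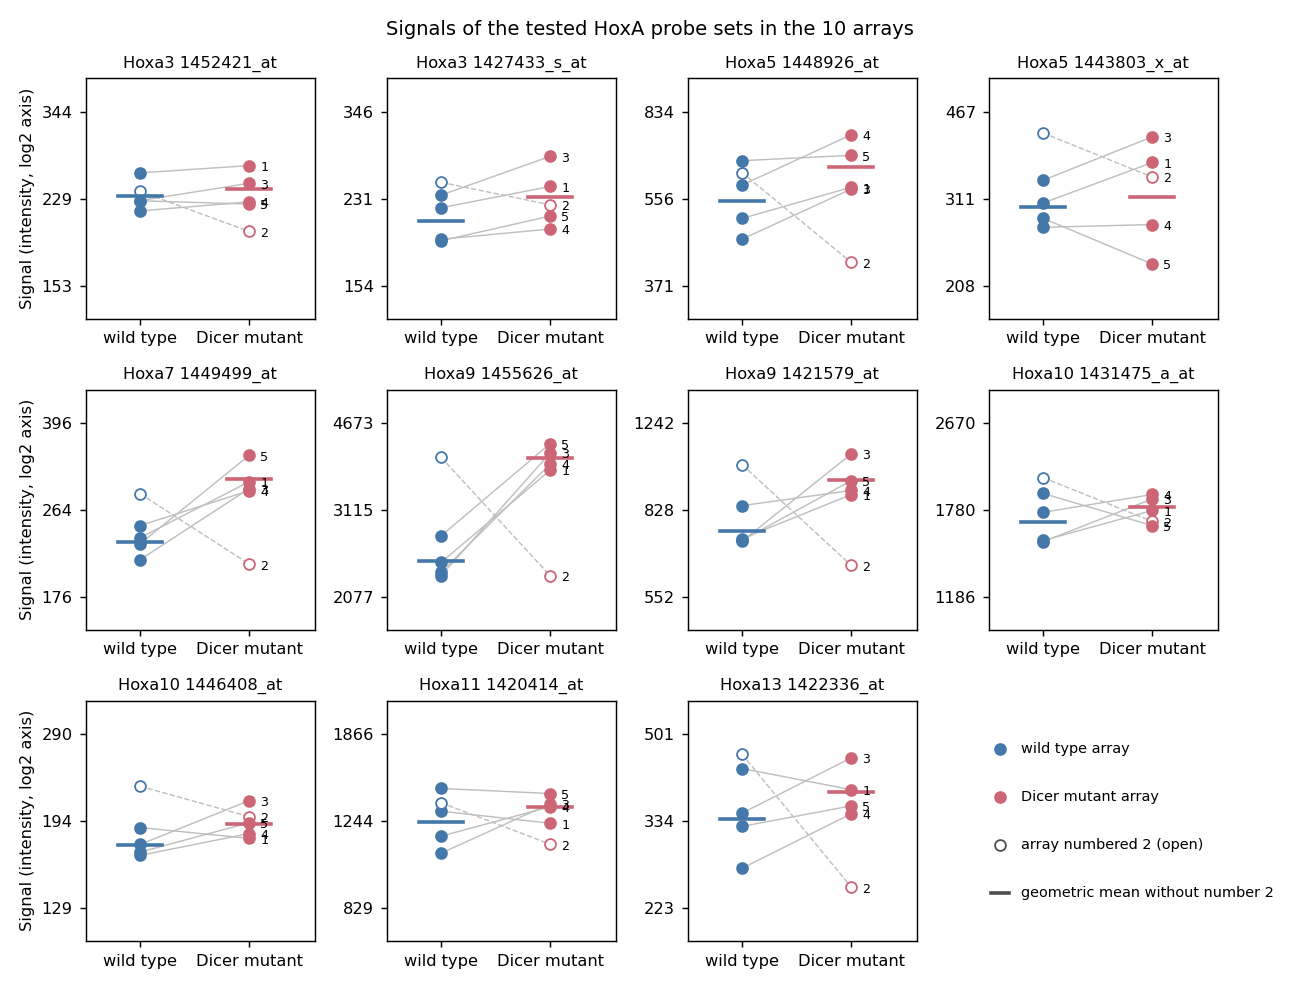
Signal (intensity, log2 axis) of each tested HoxA probe set in every array, wild type in blue and Dicer mutant in red, with grey lines between arrays of the same number and open points for number 2. Bars are geometric means without number 2; for Hoxa9 probe set 1455626_at the 4 filled mutant points lie at 3747 to 4240 and the 4 filled wild type points at 2292 to 2758.

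Hoxa9, which acts with its paralogues in the upper limb, had the largest change among the 11 tested HoxA probe sets in the 8 arrays. Probe set 1455626_at read 2437, 3975, 2292, 2329 and 2758 in wild type 1 to 5. The same probe set read 3747, 2289, 4059, 3855 and 4240 in Dicer mutant 1 to 5. Without number 2 the groups did not overlap, every mutant array standing above every wild type array, a separation seen in 4.12% of all tested probe sets in this direction. Number 2 ran the other way: the library labelled wild type 2 read within the range of the 4 mutant arrays, and the library labelled Dicer mutant 2 read just below that of the 4 wild type arrays. In the 8 arrays the log2 fold change was 0.70 (SE 0.072, n = 4 per group, limma adjusted p = 0.00282). It was 0.62, 0.82, 0.73 and 0.62 in numbers 1, 3, 4 and 5, and -0.80 in number 2. An exact permutation test, two-sided, reached p = 0.0286 in the 8 arrays, the smallest that 4 against 4 allow. In all 10 arrays the value was 0.40 (SE 0.19, n = 5 per group, limma adjusted p = 1.00, exact permutation p = 0.151). The call held without each of the 8 arrays in turn, and numbers 1 and 3 alone gave 0.72 and numbers 4 and 5 alone 0.67 (adjusted p = 0.340, where 0 probe sets of the whole array were called).

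The second Hoxa9 probe set, 1421579_at, moved in the same direction by less. It read 724, 715, 844 and 718 in wild type 1, 3, 4 and 5. The mutant arrays of those numbers read 889, 1074, 906 and 948. The groups did not overlap, although wild type 4 came close to Dicer mutant 1. Its log2 fold change, 0.35 (SE 0.092, n = 4 per group), did not pass limma's test (adjusted p = 0.118; 0.0714 with the block). Number 2 again ran the other way, with 1021 in the library labelled wild type 2 and 639 in the library labelled Dicer mutant 2. The difference between the 2 Hoxa9 probe sets, a comparison added after their values were seen, was 0.35 (SE 0.11, exact permutation p = 0.0571) in the 8 arrays and 0.26 (SE 0.11, exact permutation p = 0.0476) in the 10. The stretch of transcript that each probe set reads was not analysed here.

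Hoxa7, the next member toward Hoxa2 and a gene best known from vertebral patterning, was measured by 1 probe set, 1449499_at. Its signals were 232, 284, 209, 245 and 225 in wild type 1 to 5. In Dicer mutant 1 to 5 they were 301, 205, 291, 288 and 340. Without number 2 the lowest mutant array stood above the highest wild type array, and in number 2 the order was turned. The log2 fold change in the 8 arrays was 0.42 (SE 0.081, n = 4 per group, limma adjusted p = 0.0394; 0.0273 with the block). It was positive in 4 of 4 numbers, from 0.23 in number 4 to 0.60 in number 5, and -0.47 in number 2. The call depended on single arrays: it was lost without any 1 of 7 of the 8 arrays (adjusted p up to 0.128, at 0.37 to 0.46), held at 0.0460 without wild type 5, and missed the threshold at 0.0599 when dim probe sets were tested too (1 HoxA probe set called, against 0.655% of all). In all 10 arrays the value was 0.24 (SE 0.13, n = 5 per group, adjusted p = 1.00, exact permutation p = 0.135).

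On the Hoxa2 side of Hoxa7 the tested members gave small values with overlapping groups. Hoxa5, which is known from lung and shoulder girdle development, read 507, 460, 592 and 663 at 1448926_at in wild type 1, 3, 4 and 5. The mutant arrays of those numbers read 586, 581, 749 and 680. The mutant array was the higher in 4 of 4 numbers, but wild type 5 stood above Dicer mutants 1 and 3, and the difference of 0.23 (SE 0.13, n = 4 per group) was not called (limma adjusted p = 0.570). The signals of numbers 4 and 5 were the higher ones within each group, with a wild type mean of 627 there against 483 in numbers 1 and 3. The other Hoxa5 probe set, 1443803_x_at, whose suffix marks probes that can bind other transcripts, gave 0.069 (SE 0.18, adjusted p = 0.952), with 0.28 in numbers 1 and 3 and -0.14 in numbers 4 and 5. Its highest signal was 422, in the library labelled wild type 2, and its lowest was 229, in Dicer mutant 5.

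Hoxa3, a gene of pharyngeal arch and neck development, had 4 probe sets, of which 2 were tested. Probe set 1452421_at ranged from 216 to 258 in the 4 wild type arrays and from 223 to 267 in the 4 mutant arrays, and its difference was 0.051 (SE 0.085, n = 4 per group, limma adjusted p = 0.913). Probe set 1427433_s_at, shared between transcripts, ranged from 189 to 234 and from 200 to 281, with 0.16 (SE 0.12, adjusted p = 0.702) and the mutant array higher in 4 of 4 numbers. In the RefSeq table the Hoxa3 gene model overlaps those of Hoxa4, Hoxa5 and Hoxa6, so a signal in that stretch may not belong to 1 gene alone. The 2 dimmer Hoxa3 probe sets, both Hoxa4 probe sets and the Hoxa2 probe set had signals between 41.1 and 138 in all 10 arrays, at an unknown distance from background. Their log2 differences lay between -0.041 and 0.043 in the 8 arrays, 0 of the 5 separated the groups, and their smallest adjusted p was 0.962 when the filter was dropped. These 5 values do not show that Hoxa2 and Hoxa4, genes of hindbrain and neck patterning, were unaltered.

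**Figure D2:**
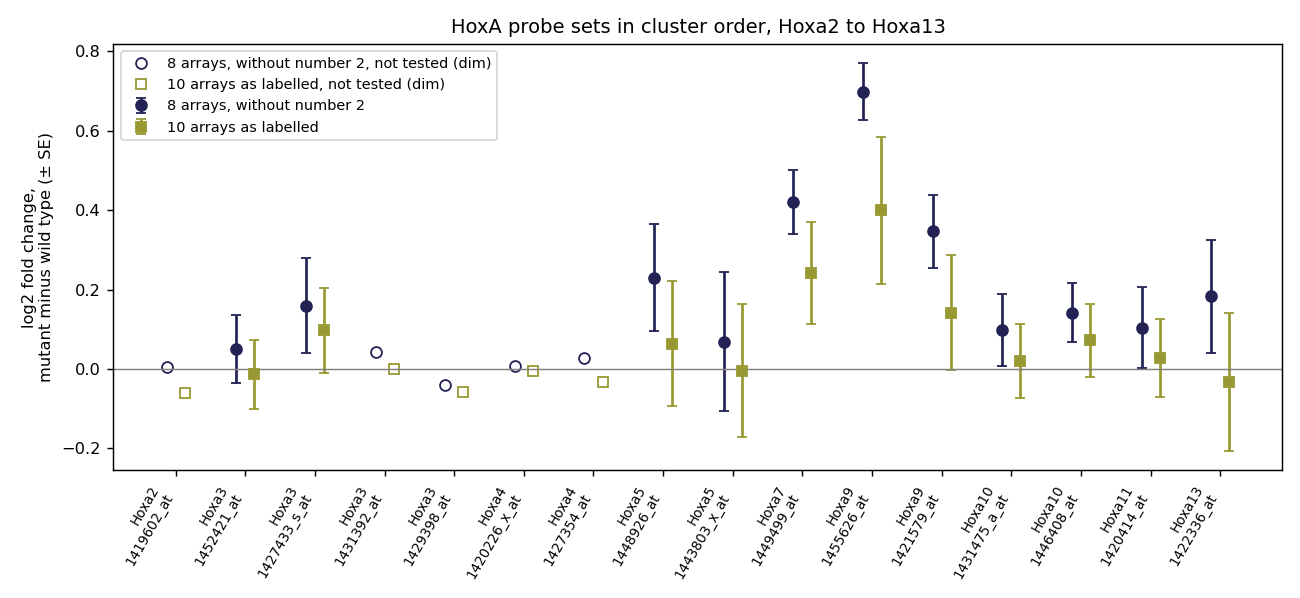
Log2 fold change, mutant minus wild type, of all 16 HoxA probe sets in cluster order, with SE for tested probe sets (filled) and no SE for dim ones (open). In the 8 arrays (circles) the values are 0.42 at Hoxa7, 0.70 and 0.35 at Hoxa9, and 0.098 and 0.14 at Hoxa10. In the 10 arrays (squares) no probe set was called.

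On the Hoxa13 side, Hoxa10, Hoxa11 and Hoxa13 did not pass the test. Hoxa10 acts with Hoxa9 in the upper limb segment. Its brighter probe set, 1431475_a_at, read 1542, 1533, 1758 and 1919 in wild type 1, 3, 4 and 5. The mutant arrays read 1773, 1871, 1910 and 1652. The groups overlapped, the mutant array being lower in number 5, and the difference was 0.098 (SE 0.090, n = 4 per group, limma adjusted p = 0.785). The dimmer Hoxa10 probe set, 1446408_at, gave 0.14 (SE 0.075, adjusted p = 0.502), between 165 and 188 in wild type and 178 and 213 in mutant arrays.

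Hoxa11, which is needed for radius and ulna, read 1301, 1070, 1158 and 1446 at 1420414_at in wild type 1, 3, 4 and 5. The mutant arrays had 1230, 1347, 1329 and 1412, all inside the wild type range, and were higher in 2 of 4 numbers. Its difference was 0.10 (SE 0.10, n = 4 per group, limma adjusted p = 0.805). Hoxa13, the digit and wrist member, had 426, 346, 268 and 326 in the wild type and 386, 448, 345 and 358 in the mutant arrays at 1422336_at. The mutant array was higher in 3 of 4 numbers and the groups overlapped, with 0.18 (SE 0.14, adjusted p = 0.718). In number 2 Hoxa13 differed more than any other tested HoxA probe set, with 455 in the library labelled wild type 2 and 245 in the library labelled Dicer mutant 2. Wild type signals of Hoxa13 averaged 384 in numbers 1 and 3 and 295 in numbers 4 and 5, the reverse of the order at Hoxa5 1448926_at but not at 1443803_x_at (321 and 278).

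**Figure D3:**
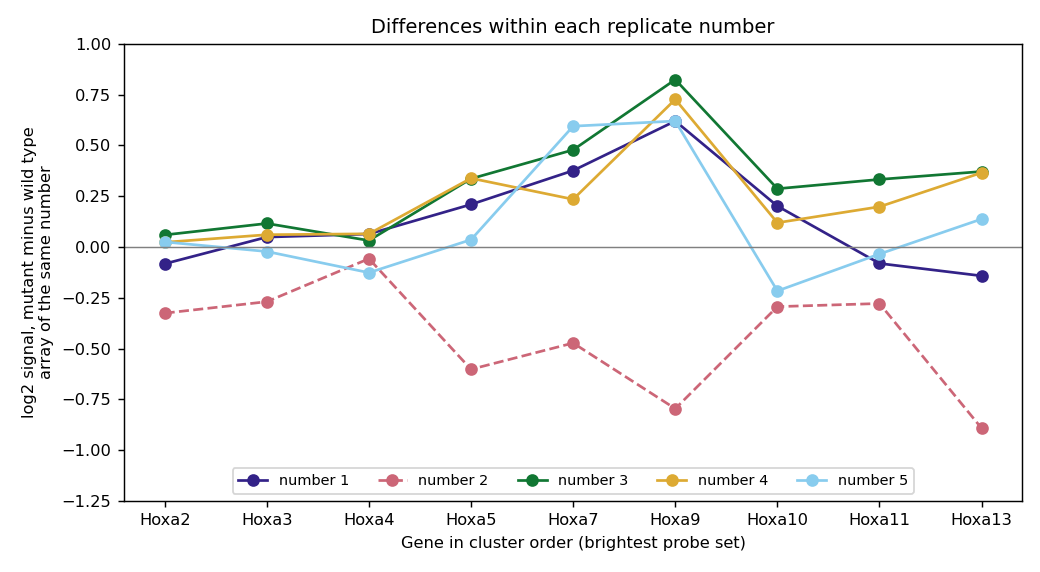
Difference in log2 signal between the mutant and the wild type array of each number, at the brightest probe set of each gene in cluster order; number 2 is dashed. In numbers 1, 3, 4 and 5 the line stands at 0.62 to 0.82 at Hoxa9 and at -0.22 to 0.29 at Hoxa10, and number 2 is at -0.80 and -0.29.

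Whether the change differed between neighbours along the cluster was asked by taking, in each array, the log2 signal of 1 gene minus that of the next, and comparing this difference between the groups. With Hoxa6 absent, 8 neighbouring pairs were compared in the 8 arrays, and 2 had an exact two-sided permutation p below 0.05. No p was adjusted over these pairs, and 0.0286 is the smallest possible value. From Hoxa9 to Hoxa10 the log2 fold change dropped by 0.60 (SE 0.093, n = 4 per group, exact permutation p = 0.0286). That drop was 0.53 to 0.64 without each array in turn, and 0.40 with the mean of the tested probe sets of each gene. The exact p was the same each time, again the smallest possible value. The step uses the same Hoxa9 values as the Hoxa9 call, so it is not separate evidence of a change. From Hoxa7 to Hoxa9 it was 0.28 higher (SE 0.086, exact permutation p = 0.0286), but with the mean of the Hoxa9 probe sets only 0.10 (exact p = 0.229), and leaving out any 1 of the 4 mutant arrays gave an exact p of 0.0571. In all 10 arrays the step from Hoxa9 to Hoxa10 was -0.38 (SE 0.18, n = 5 per group, exact permutation p = 0.0873) and the step from Hoxa7 to Hoxa9 was 0.16 (SE 0.11, exact permutation p = 0.183). Leaving out the library labelled wild type 2 alone gave -0.46 and 0.23 (exact permutation p = 0.0476 and 0.0397). Leaving out the library labelled Dicer mutant 2 alone gave -0.52 and 0.20 (exact permutation p = 0.0159 and 0.135). Without any other single array the exact permutation p was 0.0873 to 0.135 and 0.167 to 0.357. With the mean of the tested probe sets of each gene in all 10 arrays it was 0.151 and 0.698.

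The other 6 steps did not reach the threshold. From Hoxa5 to Hoxa7 the value was 0.19 (SE 0.14, n = 4 per group, exact permutation p = 0.200). From Hoxa10 to Hoxa11 it was 0.0060 (SE 0.11, exact permutation p = 0.914) and from Hoxa11 to Hoxa13 0.079 (SE 0.18, exact permutation p = 0.600). The 3 steps that involve the dim genes Hoxa2 or Hoxa4 had values of 0.045, -0.042 and 0.22, with exact permutation p between 0.171 and 0.714.

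How the members varied together was described over the brightest tested probe set of 7 genes, which share their arrays and therefore any difference in scaling. Over 10 arrays Hoxa7 and Hoxa9 had the highest Pearson correlation of the 21 pairs, 0.93. Within the groups of the 8 arrays, with each group's mean removed, that correlation was 0.30. The median correlation over the 10 arrays was 0.55 for the 6 neighbouring pairs and 0.51 for the 15 farther apart, and within groups 0.32 and -0.056. The highest correlation within groups was 0.93, for Hoxa9 and Hoxa11 (0.67 over 10 arrays). Hoxa3 and Hoxa13, near opposite ends of the cluster, correlated at 0.82 over 10 arrays and 0.76 within groups. Wild type means of these 2 genes were 242 and 384 in numbers 1 and 3, and 221 and 295 in numbers 4 and 5. The part of that difference in their correlation was not tested.

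The 5 genes whose signals over the 10 arrays were most like Hoxa9 were Cacul1 (Pearson r = 0.99), Zfp704 (0.99), the kinase gene Dyrk2 (0.98), the protogenin gene Prtg (0.98), and the let-7 target Trim71 (0.98). The Hoxa9 signals fall into 2 separate ranges, 2289 to 2758 and 3747 to 4240, so these values carry mainly that separation. Their log2 fold changes in the 8 arrays were 0.41, 0.36, 0.56, 1.49 and 1.43. All 5 were called as higher, where 2.12% of all genes were called in either direction. Choosing genes by likeness to Hoxa9 over these same arrays favours genes that separate the groups, so these calls are no separate result.

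The paralogues of the members in the other 3 clusters, which arose with them by duplication, were set beside them from a list of 27 HoxB, HoxC and HoxD genes, of which 21 share a paralogue group with a member. Of 12 of these that were tested by their brightest probe set, 0 were called in the 8 arrays by limma and 0 with the block, where 2.12% of all 11601 genes were called (6.43% with the block). An unadjusted p below 0.05 was reached by 1 of the 12, against 14.4% of all genes. Their median log2 fold change was 0.065, against 0.18 for the 7 HoxA genes and -0.013 for all genes. Within paralogue group 9, Hoxc9 stood at -0.030 (SE 0.072, limma adjusted p = 0.947) and Hoxd9 at -0.31 (SE 0.10, adjusted p = 0.224). Hoxd9 read 862, 834, 788 and 821 in wild type 1, 3, 4 and 5 and 645, 749, 554 and 732 in the mutant arrays. It was lower in 4 of 4 numbers with no overlap, where 9.09% of all tested probe sets separated the groups in either direction. The change of Hoxa9 exceeded that of Hoxc9 by 0.73 (SE 0.093, n = 4 per group, exact permutation p = 0.0286) and that of Hoxd9 by 1.01 (SE 0.10, exact permutation p = 0.0286). Hoxb7 stood at 0.10, and the change of Hoxa7 exceeded it by 0.32 (SE 0.085, exact permutation p = 0.0286). These 3 comparisons were chosen after the values were seen, and in all 10 arrays their exact permutation p was 0.0635, 0.167 and 0.270.

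**Figure D4:**
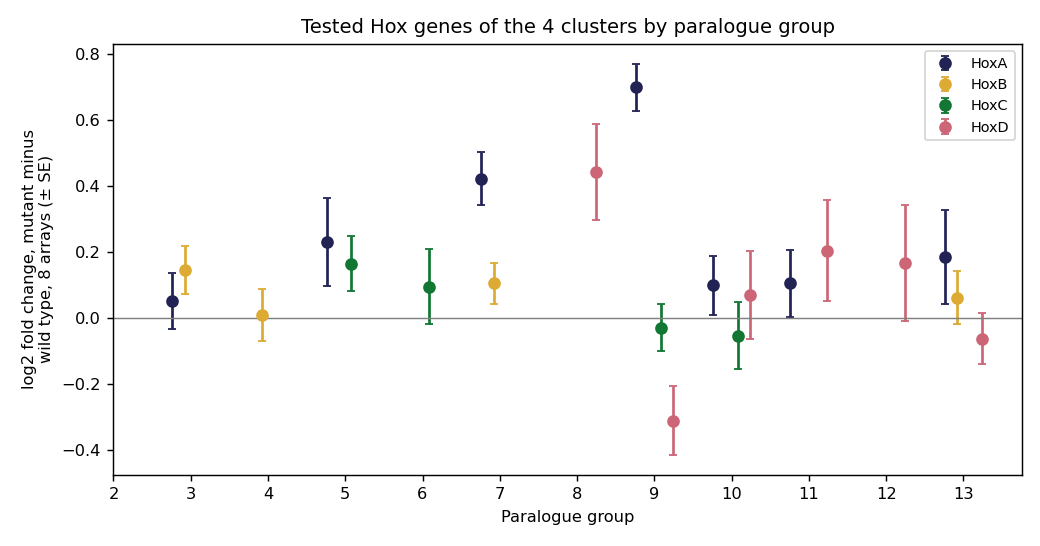
Log2 fold change, mutant minus wild type with SE in the 8 arrays, of the tested Hox genes of all 4 clusters by paralogue group, each at its brightest tested probe set. Hoxa9 stands at 0.70, with Hoxc9 at -0.030 and Hoxd9 at -0.31 in the same group, and Hoxd8 at 0.44 stands nearest to Hoxa7 at 0.42.

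Hoxd8, singled out after its values were seen, has no HoxA partner in its paralogue group. Its brighter probe set, 1431099_at, had a value of 0.44 (SE 0.15, limma adjusted p = 0.216; 0.0244 with the block). Its dimmer probe set, 1433638_s_at, shared between transcripts, was called (fold 1.59, limma adjusted p = 0.0240). It read 207, 237, 242 and 277 in wild type 1, 3, 4 and 5 and 377, 400, 329 and 422 in the mutant arrays. Number 2 ran the other way there, with 322 and 185 in the libraries labelled wild type and Dicer mutant.

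Beyond the Hoxa13 end of the cluster lies Evx1, a homeobox gene that is active in the distal limb bud. It was the only 1 of 7 tested flanking genes to be called (where 2.12% of all genes were). Its signals were 199, 177, 154 and 185 in wild type 1, 3, 4 and 5 and 281, 301, 223 and 245 in the mutant arrays, with no overlap. The log2 fold change was 0.55 (SE 0.11, n = 4 per group, limma adjusted p = 0.0490), and missed the threshold at 0.0701 with dim probe sets included. In number 2 it read 294 in the library labelled wild type and 116 in the library labelled Dicer mutant. At the other end, Skap2 stood at -0.098 (SE 0.096, adjusted p = 0.805).

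The partners and regulators of HOX genes are given against all genes, of which 2.12% were called, 6.43% with the block, and 14.4% had an unadjusted p below 0.05. Of 7 tested PBX, MEIS and PKNOX cofactor genes, 0 were called by limma (1 had an unadjusted p below 0.05, and 0 were called with the block). Their median was 0.11, with Pbx3 at 0.24 (SE 0.082, adjusted p = 0.224) and Pknox1 at 0.16 (SE 0.082, adjusted p = 0.465) having the smallest p. Of 23 tested Polycomb and MLL genes, whose proteins silence or maintain Hox expression, 1 was called and 2 with the block, all higher. The called gene was Ezh1, a histone H3 lysine methyltransferase gene, with 0.43 (SE 0.069, limma adjusted p = 0.0225) at mean signals of 223 and 300.1. Its better known relative Ezh2 stood at 0.17 (SE 0.062, adjusted p = 0.253), and the median of the list was 0.053. With the block Mtf2, a Polycomb partner gene, was called too, at 0.21 (limma adjusted p = 0.0434 with the block, 0.353 without). Of 11 tested genes of signals that act upstream of limb HoxA genes, 0 were called (2 had an unadjusted p below 0.05, 1 was called with the block). The smallest p-values were those of Fgfr2, -0.28 (SE 0.10, adjusted p = 0.259), and of Aldh1a2, which makes retinoic acid, -1.03 (SE 0.39, adjusted p = 0.294; 0.00275 with the block). Of 11 tested genes described as limb targets of HOXA10, HOXA11 or HOXA13, 0 were called (2 had an unadjusted p below 0.05, 1 was called with the block). Bmp2 led with -0.39 (SE 0.11, adjusted p = 0.148; 0.0348 with the block), followed by Gdf5, a joint marker, with -0.61 (SE 0.22, adjusted p = 0.262).

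Genes that tell hindlimb from forelimb are given beside the Hox values, since the limb pair is not stated. Tbx4, active in the hindlimb, read 192, 205, 137 and 160 in wild type 1, 3, 4 and 5 at 1456033_at and 298, 320, 208 and 220 in the mutant arrays, with no overlap. This log2 difference of 0.58 (SE 0.17) was not called by limma (adjusted p = 0.157; 0.00705 with the block). Number 2 was turned here too, with 273 and 214. A second Tbx4 probe set, 1426321_at, was too dim to be tested. Its log2 difference was 0.28, higher in 4 of 4 numbers, and its groups overlapped. Pitx1, which marks the hindlimb upstream of Tbx4, stood at 1.00-fold at 1449488_at (adjusted p = 0.998), and the forelimb gene Tbx5 was lower in 4 of 4 numbers at both tested probe sets, 0.87-fold each (adjusted p = 0.484 and 0.649). These marker genes were singled out after the data were seen, and their part in the HoxA values was not tested.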

How the data were processed

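Per the labels' protocols, biotin-labelled limb bud RNA was put on Affymetrix arrays, each holding 1 sample. The deposited intensity values are linear, for 45101 probe sets, and the submitters' processing notes name GCOS 1.3. The sources used here do not give how the authors summarised and scaled these intensities, nor their detection calls. Trimmed means agreed within 4.76% between arrays, so no normalization was added. After raising values below 1 to 1, log2 values were used throughout. Leaving out 64 control probe sets, those whose mean log2 value over the 10 arrays reached the median (a signal of 151) were tested, whichever group was brighter.

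Limma 3.58.1 in R 4.3.3 (eBayes with an intensity trend) was fitted to all 22519 such probe sets, with Benjamini-Hochberg adjustment at 0.05. Exact permutation tests used log2 values of single probe sets. The platform annotation gave 34958 probe sets 1 symbol, 932 several and 9211 none. Genes outside the cluster stand for their brightest tested probe set, with shared probe sets used only where there was no other. Named were every HoxA and Dicer1 probe set, of each list other than the cell type markers the called members, or the 2 with the smallest p where none was called, and the 5 genes most correlated with Hoxa9. Further genes are named because they share a paralogue group with a called member or were singled out after their values were seen. Alternatives changed the scaling, offset, filter, intensity trend, block, arrays included and probe set rule. The members and lists were chosen with earlier results of these data known.

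Arrays are numbered 1 to 5 in each group without a stated meaning. Among the 8 arrays, deviations from the group means correlated between arrays of the same number at 0.55, 0.55, 0.71 and 0.32 for numbers 1, 3, 4 and 5 (highest with another number 0.54, 0.54, 0.52 and 0.52). The block takes its numbers from the labels, and the sources used here do not state that arrays of the same number belong together. These correlations do not settle it: only number 4 stood well above its highest correlation with another number, and number 5 stood below. In the 10 arrays the correlation was -0.18 for number 2. The replicate block is given beside results where it matters. Numbers 4 and 5 lay apart from 1, 2 and 3 on the first principal component, which held 37.7% of the variance.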

Additional observations from a re-analysis of the deposited data

Results flagged for a closer look

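In each group of 4 or 5 arrays, 16 HoxA probe sets were checked for an array that stood apart from the others by more of the group's range than Dixon's 95% limit allows. This made 64 overlapping checks with 4 flags, where chance flags about 1 group in 20.

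Hoxa9 at 1455626_at stood apart at 2289 in the library labelled Dicer mutant 2, where the nearest of the other 4 mutant arrays read 3747. At the other Hoxa9 probe set, 1421579_at, wild type 4 stood above the other 3 wild type arrays of the 8, at 844 against 724 for the nearest. Hoxa2 at 1419602_at read 96.0 in Dicer mutant 3, against 80.6 for the nearest of 5 and 80.1 for the nearest of 4 mutant arrays, at a dim probe set that was not tested.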

How the results depend on the processing

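The number of probe sets called over the array in the 8-array comparison was 378. It was 1219 with the replicate block, which kept all 378 and changed no HoxA call, 812 in numbers 1 and 3 alone and 0 in numbers 4 and 5 alone, and ranged from 93 (without wild type 3) to 745 (without wild type 5) without single arrays. The number of HoxA probe sets called, 2 in the main setting, was 1 without the filter, 0 in numbers 4 and 5 alone, and 1 to 2 without single arrays, Hoxa9 being the one left. Quantile normalization, centring on medians, offsets of 16 and 64, a filter at the 70th percentile and no intensity trend left both calls in place. The 10-array comparison gave 0 calls in all 20 settings tried. Uncalled values changed sign in numbers 4 and 5 alone at Hoxa5 1443803_x_at (-0.14) and Hoxa10 1431475_a_at (-0.048), and the step from Hoxa10 to Hoxa11 was -0.016 with the mean of probe sets; the cause was not tested. Without single arrays, Hoxa3 1452421_at ranged from -0.0010 to 0.10, Hoxa5 1443803_x_at from -0.066 to 0.22, and the steps from Hoxa2 to Hoxa3, Hoxa10 to Hoxa11 and Hoxa11 to Hoxa13 from -0.035 to 0.10, -0.065 to 0.072 and -0.013 to 0.17. The distance of dim signals from background is unknown, which limits Hoxa2, Hoxa4 and 2 probe sets of Hoxa3.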

Other observations

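The antisense transcript Hoxa11os, whose gene model overlaps that of Hoxa11 and whose activity is known from the distal limb bud, was measured by 2 probe sets. At 1452400_a_at it read 1040, 1096, 730 and 883 in wild type 1, 3, 4 and 5 and 860, 944, 608 and 583 in the mutant arrays, lower in 4 of 4 numbers. The groups overlapped, and the log2 fold change of -0.34 (SE 0.19, limma adjusted p = 0.534; 0.0624 with the block) was not called. The dim probe set 1457646_at, not tested, gave -0.25 and was lower in 3 of 4 numbers. Evx1os, the antisense transcript of Evx1, stood at 0.082 (SE 0.051, adjusted p = 0.614), and in number 2 its difference was -0.72, the library labelled Dicer mutant being the lower. Both were looked at after their values were seen.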
